A study of Mus musculus with 12 samples.

Results

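Late granule and mature neutrophil genes were followed through normal bone marrow and 3 mouse leukemias. The set held 10 genes, Chil3, Ngp, Camp, Ltf, Lcn2, Cd177, Ly6g, Mmp8, Mmp9 and Retnlg, taken by name from a count table of 35976 genes, and all 10 were among the 15334 genes tested. RNA came from CD45.2-positive cells sorted from bone marrow of C57BL/6 mice and was sequenced as polyadenylated RNA in 12 libraries, 3 in each of 4 groups. The normal group (WT) carried no fusion by its genotype label, and each leukemia carried a fusion gene, BRD9-NUTM1 in BN1, MLL-AF9 in MA9 and MLL-ENL in ME. No further treatment is labelled for any group, and all 4 groups share the strain and the CD45.2 sort. The labels give no age, no promoter or delivery route for the fusions, no host and nothing on whether the libraries within a group are from different animals. The p-values therefore reflect the spread among these libraries alone, and that spread may be technical.

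Neutrophils make their granules in waves as they mature in the marrow. Primary granules with myeloperoxidase and elastase are filled at the promyelocyte stage, specific granules with lactoferrin, cathelicidin and lipocalin at the myelocyte and metamyelocyte stages, and gelatinase granules at the band cell stage, after which the cell segments and leaves the marrow. The transcription factor C/EBP epsilon (Cebpe) is required for specific granules in mice, and MLL fusions are known for holding myeloid cells at a progenitor stage. The genes are given here in an order of maturation drawn from textbook knowledge. Chil3 comes first, from the promyelocyte and myelocyte, followed by Ngp, Camp, Ltf and Lcn2 of specific granules, Cd177, Ly6g and Mmp8 of the metamyelocyte, Mmp9 of gelatinase granules, and Retnlg of band and segmented cells.

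The genes lie on several chromosomes of GRCm38, and 4 of them are on chromosome 9. Camp (109847377 to 109849456, minus strand), Ngp (110419808 to 110423012, plus strand) and Ltf (111019292 to 111042766, plus strand) lie within 1195 kb of each other there, and Mmp8 (7558429 to 7568486, plus strand) lies elsewhere on the same chromosome. Chil3 is on chromosome 3 (106147554 to 106167564, minus strand), Lcn2 on chromosome 2 (32384637 to 32387739, minus strand) and Mmp9 also on chromosome 2 (164940326 to 164955850, plus strand). Cd177 is on chromosome 7 (24743983 to 24760334, minus strand), Ly6g on chromosome 15 (75155261 to 75159128, plus strand) and Retnlg on chromosome 16 (48872608 to 48874498, plus strand). All 10 are annotated as protein-coding.

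Promoter sequences are shown because C/EBP factors are the known regulators of specific granules. RefSeq promoter sequences (GRCm38.p6) were matched for 9 of the 10 genes, all but Mmp9. A C/EBP-type motif, TTGCNNAA or its reverse complement TTNNGCAA, was searched in the 250 bases before each start, and it was present before 6 of the 9 genes and in 9.6% of 32851 promoters. A gene with several promoters was counted if any of them matched, whereas the share is over single promoters. The 30-base windows that hold it are chr9:111019206-111019235 for Ltf, chr9:110419659-110419688 for Ngp, chr2:32387937-32387966 for Lcn2, chr9:7558399-7558428 for Mmp8, chr15:75155018-75155047 for Ly6g and chr16:48872358-48872387 for Retnlg. They are written 5′ to 3′ on the strand of the gene, minus for Lcn2 and plus for the others, with the motif in capitals.
Ltf: aggcaggcctaTTGGGCAAtagggtggggc
Ngp: gtcctggtttaTTGCCCAAacctccttgcc
Lcn2: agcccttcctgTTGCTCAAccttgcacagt
Mmp8: ttaggcagaagTTGCTCAAgatgtagcttt
Ly6g: ctaggaaggggTTGAGCAAgttgcctcttt
Retnlg: agctTTCTGCAAggcattccaggcacctcc
The Lcn2 window lies past an annotated start further upstream. Ngp had another match between 11 and 4 bases before its start, which also lies past an annotated start further upstream. Lcn2 and Mmp8 carried the same 8 letters, as did Ltf and the second Ngp match.

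Chil3 had no match to that motif, nor did Camp and Cd177. For Camp, only the bases from 250 to 162 before the start lie upstream of every annotated start. Chil3 instead held the ETS-type motif AGGAAGT, as its reverse complement ACTTCCT, between 60 and 54 bases before its start. Counted in the same way, that motif stood before 3 of the 9 genes (Chil3, Mmp8 and Ly6g) and in 7.7% of the 32851 promoters. Its 30-base window in Chil3 is chr3:106167606-106167635, minus strand.
Chil3: tattcgcaaacACTTCCTtttccaaacttc
The longer upstream stretch of Ltf is shown beside that of Chil3 because the 2 genes parted furthest in the libraries, as described further on. The stretch for Ltf is chr9:111019042-111019270 on the plus strand, from 250 to 22 bases before the start, with the C/EBP-type match in capitals, and that for Chil3 is chr3:106167565-106167814 on the minus strand, the full 250 bases, with no capitals.
Ltf: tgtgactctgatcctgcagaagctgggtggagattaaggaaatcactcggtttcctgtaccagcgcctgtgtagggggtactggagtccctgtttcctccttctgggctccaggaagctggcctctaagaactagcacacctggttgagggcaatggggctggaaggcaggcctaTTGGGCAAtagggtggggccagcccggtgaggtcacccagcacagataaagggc
Chil3: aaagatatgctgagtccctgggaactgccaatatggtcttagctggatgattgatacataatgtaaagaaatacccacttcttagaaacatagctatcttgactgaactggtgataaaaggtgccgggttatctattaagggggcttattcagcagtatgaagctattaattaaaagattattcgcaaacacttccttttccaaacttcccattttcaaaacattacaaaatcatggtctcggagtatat
A match describes letters in these windows and says nothing about binding. Any part of these motifs in the levels of the genes was not tested.

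Library totals ran from 18292636 to 25732049 counts, so that a gene without counts in a library is limited to between 0.115 and 0.169 CPM (3 counts, counting error only). Levels are CPM, counts scaled by TMM-adjusted library size, as mean ± SD over n = 3 libraries. Ptprc, the gene of CD45, was present in every library, and in the leukemias it stood at 31.8% to 51.4% of the WT mean. The summed CPM of 8 red cell markers was 33123.2 to 43053.3 in WT and at most 32.26 in any leukemia library, and that of 7 B cell markers 1040.5 to 1176.2 in WT and at most 18.94 in the leukemias, so RNA of several lineages was present in WT and was low in the leukemia libraries. In such bulk samples, fewer cells of a type and less RNA per cell cannot be told apart. ME replicate 3 stood apart, with LOC101056014 at 14795.4 CPM against 454.7 and 445.8 in the other ME libraries, and every call given here for the 10 genes was the same without that library. Counts over the gene lists described further on moved by at most 2 genes without it.

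In normal marrow the genes were abundant and together took 3.97% ± 0.04 of all counts (SD, n = 3). Per kilobase of exon, Ngp stood highest at 9964.9 ± 267.5 CPM per kb, followed by Camp (4697.5 ± 485.0), Retnlg (3968.6 ± 250.3), Ltf (2644.9 ± 19.2), Chil3 (2401.9 ± 84.4) and Lcn2 (1922.3 ± 29.8). Mmp9 (836.2 ± 1.91), Mmp8 (647.2 ± 52.6), Cd177 (609.5 ± 9.52) and Ly6g (211.4 ± 15.8) were lower. Camp and Retnlg overlapped between libraries, and so did Mmp8 and Cd177. The level in WT did not follow the order of maturation, as the late gene Retnlg stood above the earlier Ltf, Chil3 and Lcn2.

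**Figure D1:**
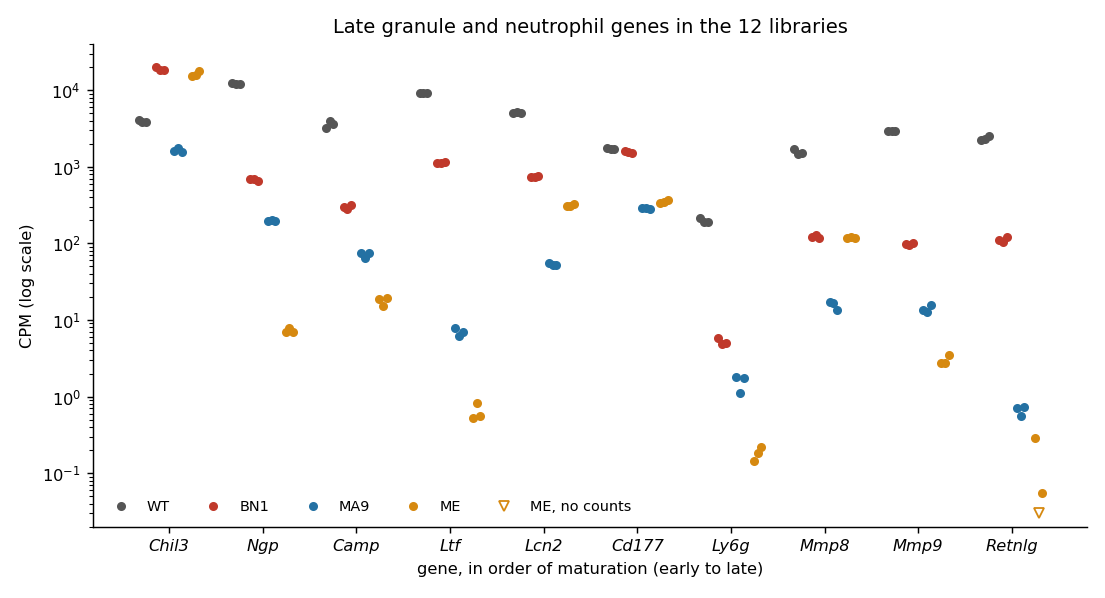
CPM of each gene in each of the 12 libraries (points, log axis), with the genes in order of maturation and the 4 groups side by side. An open triangle at the bottom marks the one ME library without Retnlg counts; WT points are highest for 9 genes, while Chil3 is highest in BN1 and ME.

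Chil3 was the one gene of the 10 that stood above normal marrow in any leukemia. It encodes a secreted chitinase-like lectin, Ym1, made by immature neutrophils and also by monocytes and macrophages. Its levels were 4072.9, 3806.3 and 3880.2 CPM in the WT libraries and 19759.9, 18108.5 and 18425.0 CPM in BN1. In MA9 they were 1616.3, 1731.0 and 1578.1 CPM, and in ME 15228.2, 15612.1 and 17532.5 CPM. No group overlapped another, with BN1 highest, ME next, then WT, and MA9 lowest. In edgeR's quasi-likelihood test with Benjamini-Hochberg adjustment, Chil3 was higher than in WT by 2.26 ± 0.05 (log2, approximate SE, adjusted p = 7.4e-22) in BN1 and by 2.04 ± 0.05 (adjusted p = 4.9e-21) in ME, and it fell by 1.26 ± 0.05 (adjusted p = 4.4e-17) in MA9. These are 479%, 411% and 41.9% of the WT mean.

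Markers of monocytes and macrophages, cells that can also make Chil3, are given beside it. Summed over 13 monocyte and macrophage markers, WT libraries had 2477.4 to 2831.5 CPM, BN1 6553.2 to 6921.5, MA9 2758.7 to 3018.8 and ME 3475.6 to 3823.1, and no marker of the list was without counts in any group. Of the 13, 8 were higher and 5 lower in BN1, 4 higher and 9 lower in MA9, and 3 higher and 10 lower in ME, against WT. In these comparisons 38.4%, 39.3% and 39% of all tested genes were called higher and 40.8%, 40.8% and 40.2% lower. By number of markers, most of the list was higher in BN1 and lower in ME, while the sum stood above WT in both. Ly6c2 and F13a1 had the highest levels of the list in each group and made up most of the sum. In ME their means were 1800.3 and 1395.6 CPM, so the sum says little about the other markers. Among the markers, Ly6c2 rose in each leukemia, by 1.23 ± 0.07 (BN1), 0.77 ± 0.07 (MA9) and 1.01 ± 0.07 (ME, log2). For F13a1, the coagulation factor XIII A chain of monocytes, WT had 780.7 ± 66.7 CPM, BN1 3432.9 ± 76.5, MA9 875.8 ± 36.3 and ME 1395.6 ± 9.56. Csf1r, the receptor for the macrophage growth factor M-CSF, was higher in BN1 (0.89 ± 0.04, log2) and lower in MA9 (-1.0 ± 0.04) and ME (-0.64 ± 0.04). The part of monocytic cells in the Chil3 levels was not tested. Chil4, a close copy of Chil3, followed the same pattern at 3.70 CPM or less, and the part of shared reads in it was not tested either.

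Among the genes of specific granules, Ngp had the highest level in WT. It encodes neutrophilic granule protein, a relative of the cathelicidins and cystatins. The WT libraries stood at 12554.3, 12003.1 and 11974.1 CPM and those of BN1 at 689.9, 688.1 and 652.3 CPM. The MA9 libraries stood at 194.4, 204.2 and 193.6 CPM, and those of ME at 6.87, 7.75 and 7.06 CPM. Every group was apart from the next, in the order WT, BN1, MA9, ME. Against WT, Ngp fell in all 3 leukemias, with log2 fold changes of -4.17 ± 0.05 for BN1 (adjusted p = 2.1e-31), -5.95 ± 0.05 for MA9 (adjusted p = 2.6e-34) and -10.72 ± 0.06 for ME (adjusted p = 1e-37, edgeR), leaving 5.56%, 1.62% and 0.0593% of the WT mean.

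Camp, the precursor of the antimicrobial cathelicidin peptide, had the same order of groups. WT libraries ranged from 3168.1 to 3896.7 CPM, BN1 from 277.4 to 317.2, MA9 from 64.4 to 74.1 and ME from 15.1 to 19.3, without overlap. The falls against WT were smaller than those of Ngp in each leukemia, with log2 fold changes of -3.58 ± 0.09 for BN1, -5.65 ± 0.11 for MA9 and -7.66 ± 0.12 for ME. That left 8.35%, 1.99% and 0.498% of the WT mean.

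Together with Retnlg, Ltf separated BN1 from the MLL fusion leukemias most widely of the 10 genes. It encodes the iron-binding protein lactoferrin. Its WT libraries stood at 9057.6, 9190.4 and 9127.0 CPM and its BN1 libraries at 1116.0, 1124.8 and 1143.6 CPM. In MA9 the values were 7.84, 6.13 and 6.90 CPM, and in ME 0.532, 0.816 and 0.556 CPM, from 11, 18 and 10 counts. BN1 thus kept 12.4% of the WT level, MA9 0.0762% and ME 0.00696%. Log2 fold changes against WT were -3.02 ± 0.05 for BN1 (adjusted p = 1.4e-27), -10.36 ± 0.07 for MA9 (adjusted p = 1.1e-35) and -13.78 ± 0.09 for ME (adjusted p = 5.6e-37, edgeR).

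Lcn2, the lipocalin that binds bacterial siderophores, broke this order of the leukemias. The libraries stood at 5002.6, 5132.2 and 4991.6 CPM in WT and at 728.1, 729.7 and 748.7 CPM in BN1. MA9 libraries had 55.2, 52.4 and 52.6 CPM, and ME libraries had 308.9, 306.4 and 325.1 CPM. ME lay above MA9 here, and no groups overlapped. Against WT, Lcn2 fell with log2 fold changes of -2.78 ± 0.04 for BN1, -6.56 ± 0.05 for MA9 and -4.01 ± 0.04 for ME, leaving 14.6%, 1.06% and 6.22%.

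Cd177 kept most of its level in BN1. It encodes a surface glycoprotein of neutrophils held by a lipid anchor. The WT libraries stood at 1762.1, 1716.3 and 1714.4 CPM and the BN1 libraries at 1593.8, 1564.0 and 1533.0 CPM. The MA9 libraries stood at 289.3, 285.6 and 280.3 CPM, and those of ME at 334.4, 351.3 and 372.8 CPM. The groups did not overlap, and BN1 lay just under WT, at 90.3% of its mean, whereas MA9 kept 16.5% and ME 20.4%. The fall in BN1 was by 0.15 ± 0.04 (log2, adjusted p = 0.0029, edgeR) and was no longer called without a scaling factor (-0.02, adjusted p = 0.62), while the log2 fold changes in MA9 and ME were -2.6 ± 0.05 and -2.29 ± 0.05.

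Ly6g, a surface protein commonly used to mark mouse neutrophils, was the lowest of the 10 in WT and was left at 2.62% or less of WT in each leukemia. WT libraries stood at 216.3, 190.1 and 191.0 CPM, and those of BN1 at 5.84, 4.86 and 4.98 CPM. MA9 libraries had 36, 26 and 36 counts (1.81, 1.12 and 1.75 CPM), and ME libraries had 3, 4 and 4 counts (0.145, 0.181 and 0.222 CPM). The order was again WT, BN1, MA9, ME, without overlap. It fell against WT with log2 fold changes of -5.25 ± 0.09 for BN1, -7.01 ± 0.11 for MA9 and -10.06 ± 0.14 for ME.

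Mmp8, the neutrophil collagenase, was the one gene whose level was not told apart between BN1 and ME. Its WT libraries stood at 1715.5, 1480.1 and 1512.8 CPM, and its BN1 libraries at 121.1, 127.3 and 116.3 CPM. ME libraries stood at 117.5, 121.1 and 118.7 CPM, inside the range of BN1, and MA9 libraries at 17.1, 16.5 and 13.7 CPM. Against WT its log2 fold change was -3.69 ± 0.06 for BN1, -6.64 ± 0.08 for MA9 and -3.72 ± 0.06 for ME. BN1 and ME thus kept 7.75% and 7.59% of the WT level and MA9 kept 1.0%.

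Mmp9, the gelatinase of the granules formed last, returned to the order of Ngp and Ltf. WT libraries ranged from 2954.6 to 2967.1 CPM and BN1 libraries from 94.1 to 101.2. Those of MA9 ranged from 12.9 to 15.5 and those of ME from 2.71 to 3.5 CPM, and the groups were apart. The log2 fold changes against WT were -4.92 ± 0.06 for BN1, -7.73 ± 0.07 for MA9 and -9.96 ± 0.08 for ME, leaving 3.30%, 0.472% and 0.101%.

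Retnlg, a resistin-like secreted protein and the latest gene of the order, was close to the limit of detection in both MLL fusion leukemias. The WT libraries stood at 2260.4, 2275.2 and 2524.6 CPM and the BN1 libraries at 110.5, 105.5 and 119.9 CPM. MA9 libraries had 14, 13 and 15 counts (0.703, 0.561 and 0.729 CPM). ME libraries had 6, 0 and 1 counts, and the library without counts allows up to 0.136 CPM. BN1 therefore kept 4.76% of WT and MA9 0.0282%, and the 7 counts in ME correspond to 0.0049%. Against WT the log2 fold changes were -4.39 ± 0.08 for BN1 (adjusted p = 1.9e-19), -11.79 ± 0.14 for MA9 (adjusted p = 9.8e-23) and -14.25 ± 0.16 for ME (adjusted p = 9e-23, edgeR). With so few counts the value for ME turned on single libraries, and it was -16.21 without ME replicate 1 and -13.62 without ME replicate 2. Its relatives Retn, Retnla and Retnlb stood at 0.766 CPM or less in every group.

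**Figure D2:**
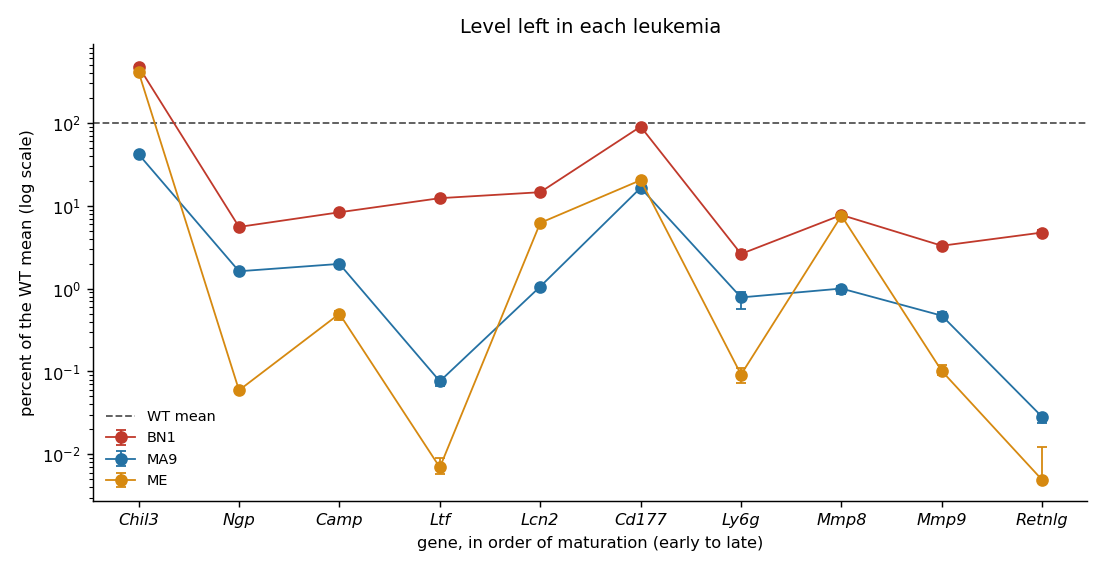
Level of each gene in BN1, MA9 and ME as a percent of the WT mean (log axis), with the genes in order of maturation; points are means of 3 libraries, bars run from the lowest to the highest library and lines only join the points of a group. The lower bar of Retnlg in ME is not drawn because one library had no counts; the dashed line is the WT mean, and Cd177 in BN1 lies just under it at 90.3%.

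Counted over the set, BN1 against WT had 1 gene higher and 9 lower, with a median log2 fold change of -3.64. In that comparison 79.2% of all 15334 tested genes were called, 38.4% higher and 40.8% lower, with a median of -0.01. MA9 against WT had 10 of 10 lower (median -6.60), where 80.1% of all genes were called, 39.3% higher and 40.8% lower. ME against WT had 1 higher and 9 lower (median -8.81), where 79.2% of all genes were called, 39% higher and 40.2% lower. Being called was thus common for any gene in these comparisons, and the sizes say more, since the median absolute log2 change of all genes was 0.71, 0.75 and 0.72. The 3 comparisons share the WT libraries.

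Apart from Chil3, the genes did not fall evenly, nor steadily along the order of maturation. The level left ran from 2.62% (Ly6g) to 90.3% (Cd177) in BN1, a 34.4-fold range, from 0.0282% (Retnlg) to 16.5% (Cd177) in MA9, a 583-fold range, and from 0.0049% (Retnlg, on 7 counts) to 20.4% (Cd177) in ME. Medians over these 9 genes were 7.75%, 1.0% and 0.101%. Cd177 kept the largest share in all 3 leukemias. Ltf, a gene of the middle of the order, kept less in MA9 and ME than Mmp8 and Mmp9, which are placed after it, whereas in BN1 it kept more than either.

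Per kilobase, the order of the genes therefore changed from group to group. Chil3 led in all 3 leukemias, at 11497.8 ± 537.1 CPM per kb in BN1, 1006.0 ± 48.8 in MA9 and 9880.1 ± 756.5 in ME. In BN1 it was followed by Ngp (553.8 ± 17.4) and Cd177 (550.6 ± 10.7), which overlapped. In MA9 the next were Ngp (161.6 ± 4.81), Cd177 (100.4 ± 1.60) and Camp (93.4 ± 7.35), and Ltf, Ly6g and Retnlg came last, each overlapping its neighbour. In ME, Cd177 (124.2 ± 6.78) and Lcn2 (119.5 ± 3.87) overlapped and Mmp8 (49.1 ± 0.755) came next. Ngp, first in WT, was sixth in ME at 5.91 ± 0.382 CPM per kb, and Retnlg, Ly6g and Ltf could not be ordered there.

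As a share of all counts, the 10 genes together fell less than 8 of them did singly in BN1 and 9 in ME, and Chil3 made up most of the sum. WT gave them 3.97%, BN1 2.39% ± 0.09, MA9 0.240% ± 0.008 and ME 1.71% ± 0.09. Chil3 was 9.19% of the counts of the set in WT, and 79.8%, 71.8% and 95.2% in BN1, MA9 and ME. Without Chil3, WT had a share of 3.60% ± 0.02, BN1 0.481% ± 0.003, MA9 0.0677% ± 0.0009 and ME 0.0820% ± 0.0013. A sum over neutrophil genes that includes Chil3 thus placed ME well above MA9, and one without it placed them close together. The sum without Chil3 again rested on few genes, and not on the same ones. In ME, Cd177, Lcn2 and Mmp8 stood at 352.9, 313.4 and 119.1 CPM and the next, Camp, at 17.7. In MA9, Cd177 (285.1 CPM) and Ngp (197.4 CPM) stood highest.

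**Figure D3:**
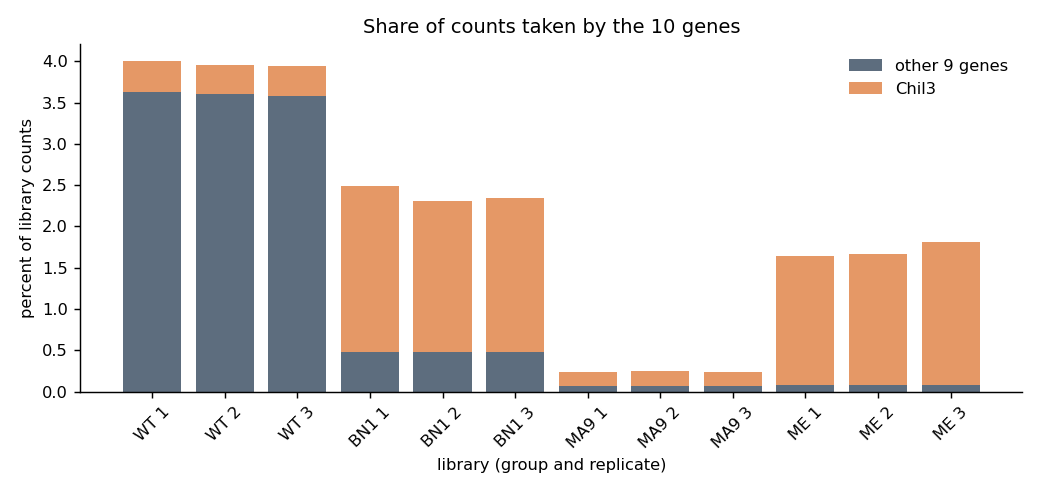
Percent of all counts in each of the 12 libraries taken by the 10 genes, split into Chil3 (orange) and the other 9 genes (grey). The grey part shrinks from 3.60% in WT to 0.481% in BN1 and under 0.09% in MA9 and ME, while Chil3 fills most of the bars of the leukemias.

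The leukemias were then compared with each other, which asks whether BRD9-NUTM1 and the MLL fusions leave the same late genes. BN1 was above MA9 for 10 of 10 genes (median 2.88), where 67.7% of all genes were called, 32.8% higher and 34.9% lower. It was above ME for 9 genes (median 4.44), where 64.7% of all genes were called, 31.8% higher and 33% lower. Retnlg and Ltf differed most between BN1 and MA9, by 7.39 ± 0.14 and 7.35 ± 0.07 (log2, adjusted p = 5.6e-19 and 8.9e-33, edgeR). The smallest differences were those of Ly6g (1.76 ± 0.16) and Ngp (1.78 ± 0.04).

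Against ME, BN1 stood higher by 10.77 ± 0.09 (log2) for Ltf, 9.85 ± 0.18 for Retnlg, 6.55 ± 0.06 for Ngp, 5.04 ± 0.08 for Mmp9, 4.81 ± 0.26 for Ly6g and 4.07 ± 0.11 for Camp. That of Retnlg was 11.82 without ME replicate 1 and 9.23 without ME replicate 2. The differences were smaller for Cd177 (2.15 ± 0.04), Lcn2 (1.23 ± 0.04) and Chil3 (0.22 ± 0.05, adjusted p = 0.00032, edgeR), and that of Chil3 was a 1.16-fold one. For Mmp8 the difference was 0.03 ± 0.06 with a 95% interval from -0.09 to 0.15 (adjusted p = 0.69), and the libraries overlapped.

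MA9 and ME, the leukemias with MLL fusions, split the set. Of all genes 40.6% were called between them, 20.2% higher in MA9 and 20.4% lower, which is 3095 and 3130 genes against 3888 and 2509 without a scaling factor. Of the 10, MA9 was higher for Ngp (4.77 ± 0.05, log2), Ltf (3.42 ± 0.12), Ly6g (3.05 ± 0.36), Retnlg (2.46 ± 0.51), Mmp9 (2.23 ± 0.09) and Camp (2.0 ± 0.1). It was lower for Chil3 (-3.30 ± 0.05), Mmp8 (-2.92 ± 0.07), Lcn2 (-2.55 ± 0.04) and Cd177 (-0.31 ± 0.04, adjusted p = 1.3e-06, edgeR). The 6 genes and the 4 genes were both spread over the order of maturation, with specific granule proteins, surface proteins and metalloproteinases in each. Retnlg rests on 42 counts in MA9 and 7 in ME, 6 of them in ME replicate 1. Its ratio of 5.72 has a counting interval from 2.55 to 15.1, and its log2 difference was 4.43 without ME replicate 1 and 1.83 without ME replicate 2.

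**Figure D4:**
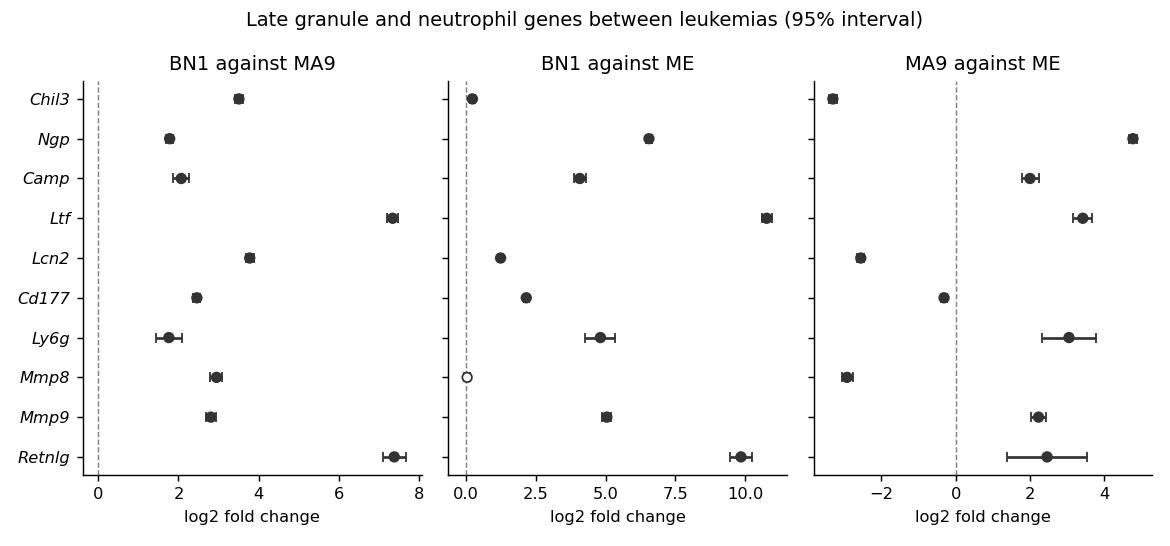
Log2 fold changes between the leukemias for each gene, in order of maturation from top to bottom, with 95% intervals (bars); filled points passed the test and the open point did not. Each panel has its own axis. All filled points lie right of 0 in the panels of BN1, and 6 lie right and 4 left of 0 in MA9 against ME.

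Other genes with the profile of Ltf across the 12 libraries were sought among 10630 genes with a mean of at least 5 CPM, by the root mean square difference of centred log2 CPM. The 5 nearest were Retnlg (0.93), Chil1 (1.77), Plbd1 (1.85), S100a9 (2.01) and Mmp9 (2.07). A pseudocount of 0.5 CPM was added first, so differences among levels near or below it were flattened. That applied in ME to Ltf (0.635 CPM), Plbd1 (0.485 CPM) and Ly6g (0.183 CPM), and in MA9 and ME to Retnlg and Chil1. Chil1, a chitinase-like protein of specific granules, stood at 360.0, 21.4, 0.195 and 0.0806 CPM in WT, BN1, MA9 and ME, and S100a9, a subunit of the neutrophil protein calprotectin, at 16174.1, 1111.9, 129.4 and 26.4 CPM. Ngp, Camp and Ly6g ranked 6, 10 and 11, whereas Lcn2 ranked 96, Mmp8 276, Cd177 367 and Chil3 7938. The chitinase-like genes Chil1 and Chil3 thus had unlike profiles. For Chil3 the nearest were Akr1e1 (0.21), Ms4a6d (0.27), Vcan (0.40), Ttc21a (0.48) and Dock1 (0.53). In that order they stood at 4.51, 14.1, 50.6, 4.62 and 21.9 CPM in WT and at 21.2, 102.2, 117.8, 21.1 and 77.7 CPM in BN1. They stood at 1.41, 7.58, 15.7, 2.50 and 8.05 CPM in MA9 and at 14.4, 62.4, 127.1, 11.7 and 35.8 CPM in ME. No other gene of the 10 was near Chil3, and Ltf was 10624th.

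The earlier genes of granule formation moved the other way. Of 14 primary granule genes, 11 were higher and 3 lower in BN1 than in WT (median log2 fold change 2.01), 11 and 2 in MA9 (1.80) and 11 and 2 in ME (1.95). Over all tested genes, 38.4%, 39.3% and 39% were called higher and 40.8%, 40.8% and 40.2% lower. Elane, neutrophil elastase, was higher by 4.55 ± 0.04, 4.06 ± 0.04 and 4.28 ± 0.04 (log2), and the protease cathepsin G, Ctsg, by 4.35 ± 0.05, 4.01 ± 0.05 and 4.17 ± 0.05. Prtn3, proteinase 3, was higher by 2.89 ± 0.05, 3.30 ± 0.05 and 3.71 ± 0.05. The lectin gene Fcnb, listed both here and with the later genes, fell, with log2 fold changes of -1.36 ± 0.07, -4.6 ± 0.1 and -3.01 ± 0.08. Cd63, a membrane protein of primary granules and of other vesicles, fell by 3.65 ± 0.08 in BN1 and was higher in MA9 (1.57 ± 0.06) and ME (0.72 ± 0.06).

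Other genes of specific and gelatinase granules and of mature neutrophils fell for the most part, 45 of 52 in BN1, 43 in MA9 and 44 in ME, with 7, 7 and 5 higher and medians of -1.97, -3.13 and -2.61. Among all tested genes, 40.8%, 40.8% and 40.2% were called lower and 38.4%, 39.3% and 39% higher. The interleukin gene Il1b fell in BN1 from 57.2 ± 2.71 CPM to 0.379 ± 0.134, and Olfm4, a protein of a subset of specific granules, from 199.7 ± 14.0 to 5.54 ± 1.03. In MA9 the formyl peptide receptor gene Fpr1 fell from 127.7 ± 2.45 to 0.186 ± 0.119 CPM. In ME the integrin gene Itgb2l fell from 440.6 ± 11.7 to 0.424 ± 0.107 CPM, and S100a9 to 26.4 ± 0.990. The chemokine receptor gene Cxcr2, through which mature neutrophils leave the marrow, fell, with log2 fold changes of -3.94 ± 0.07 for BN1, -7.55 ± 0.1 for MA9 and -7.95 ± 0.1 for ME.

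A few late genes went up. Abca13, a transporter gene, was higher in each leukemia, by 1.16 ± 0.06, 1.15 ± 0.06 and 0.99 ± 0.06 (log2). The stefins, inhibitors of cysteine proteases, differed between leukemias. For Stfa3, WT had 2.20 ± 0.329 CPM, BN1 17.9 ± 0.879, MA9 0.9995 ± 0.324 and ME 0.967 ± 0.0684, and for Stfa1 they had 5.24 ± 0.455, 10.2 ± 0.759, 17.2 ± 0.952 and 17.2 ± 3.10. The stefin genes are close copies, so reads could have been split between them. Between the leukemias, 33 of the 52 were higher and 11 lower in BN1 than in MA9, 30 and 16 against ME, and 13 were higher and 29 lower in MA9 than in ME. Over all tested genes the shares were 32.8% and 34.9%, 31.8% and 33%, and 20.2% and 20.4%. Wfdc21 was like Lcn2 in having more in ME (37.6 ± 4.02 CPM) than in MA9 (1.63 ± 0.499), as was Lrg1 (42.3 ± 3.49 against 3.62 ± 0.748).

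**Figure D5:**
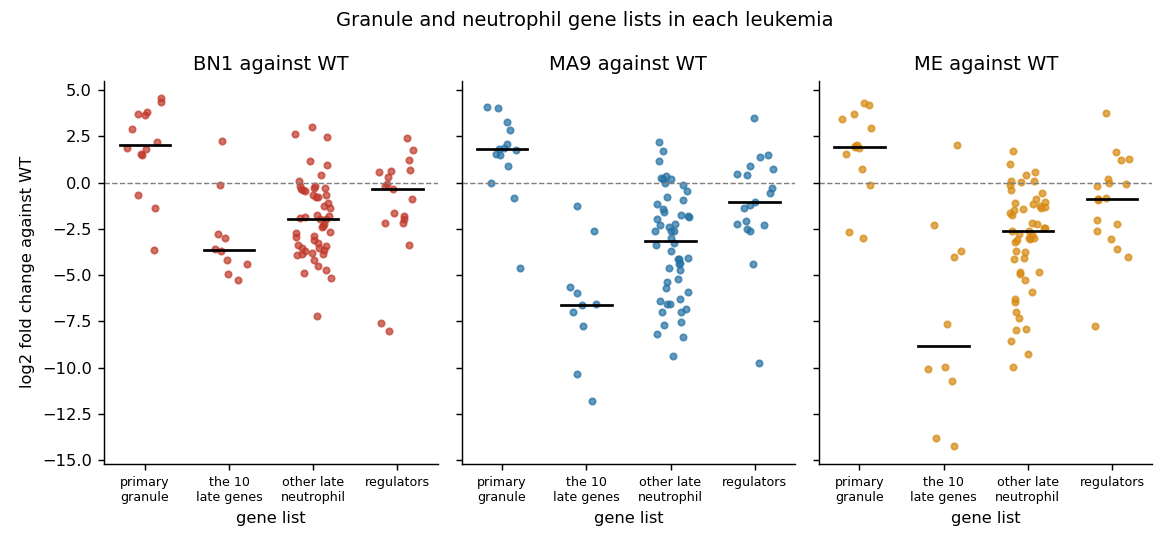
Log2 fold change of every tested gene of 4 lists against WT in BN1, MA9 and ME (points), with the median of each list (black bar). Genes without counts in a leukemia are drawn at the bound that 3 counts per library allow, and genes of the set are left out of the other lists; the primary granule genes lie mostly above 0 and the late genes mostly below.

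Regulators of granule formation were read from a list of 20, of which 19 were tested. Against WT, 7 were higher and 10 lower in BN1, 7 and 12 in MA9, and 5 and 11 in ME. Of all tested genes, 38.4%, 39.3% and 39% were called higher and 40.8%, 40.8% and 40.2% lower, so calls were common for any genes. WT held 144.8 ± 5.57 CPM of Cebpe, BN1 31.2 ± 2.94, MA9 70.4 ± 4.80 and ME 76.3 ± 4.59. Its level in BN1 was below that in MA9 and ME. The log2 fold changes were -1.17 ± 0.07 and -1.29 ± 0.07 (adjusted p = 7.0e-15 and 8.9e-16, edgeR). Between MA9 and ME it was not called (-0.12 ± 0.06, adjusted p = 0.14, edgeR). The part of Cebpe in the levels of the late genes was not tested.

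The other regulators are given in groups that were made after their values were seen. Cebpa, which directs progenitors to the granulocyte line, stood at 117.9 ± 6.72 CPM in WT and 397.8 ± 26.8, 310.5 ± 31.2 and 291.0 ± 24.8 in BN1, MA9 and ME, and Cebpb, a relative active in emergency granulopoiesis, at 82.3 ± 11.2 against 191.5 ± 36.2, 151.1 ± 23.0 and 192.5 ± 38.7. The repressor gene Gfi1, needed for neutrophil maturation, was higher by 2.43 ± 0.05 (log2), 3.47 ± 0.05 and 3.75 ± 0.05. Spi1, the gene of PU.1, was lower in MA9 (-0.28 ± 0.05, not called without a scaling factor, adjusted p = 0.056) and not called in BN1 (-0.08 ± 0.05) or ME (-0.06 ± 0.05). Runx1 was higher in BN1 (0.70 ± 0.05) and MA9 (0.42 ± 0.05) and not called in ME (-0.04 ± 0.05). Myc, a driver of growth that is shut off as granulocytes mature, was higher by 0.58 ± 0.06, 1.51 ± 0.06 and 1.67 ± 0.06.

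A further group was lower in most of these comparisons. Mxd1, a Myc antagonist of maturing granulocytes, fell, with log2 fold changes of -3.4 ± 0.05 for BN1, -4.4 ± 0.05 for MA9 and -4.04 ± 0.05 for ME. Csf3r, the receptor for the granulocyte growth factor G-CSF, fell likewise (-1.97 ± 0.04, -2.62 ± 0.05 and -2.62 ± 0.05), as did the retinoic acid receptor gene Rara (-1.64 ± 0.08, -2.05 ± 0.08 and -2.25 ± 0.08). Csf3r is listed both here and with the other late genes, so its fall is counted in both lists. Cebpd stood at 187.1 ± 15.0 CPM in WT and 101.4 ± 4.95, 80.1 ± 9.55 and 105.5 ± 10.4 in BN1, MA9 and ME. Klf5 stood at 23.8 ± 1.20 CPM in WT, 4.86 ± 0.744 in MA9 and 5.80 ± 1.34 in ME, and was without counts in the 3 BN1 libraries, at least 191-fold lower with a floor of 3 counts per library. Lef1, also a gene of lymphoid cells, fell from 32.3 ± 0.418 CPM to 2 counts in MA9 and no counts in BN1 or ME. Ets1, likewise shared with lymphoid cells, fell as well (-2.16 ± 0.06, -1.39 ± 0.06 and -3.6 ± 0.06).

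The remaining regulators include factors of the monocyte line and immediate early genes. Irf8, which favours monocytes over neutrophils, was lower, with log2 fold changes of -0.35 ± 0.05, -0.57 ± 0.05 and -0.9 ± 0.05 for BN1, MA9 and ME. Klf4, a factor of monocytes, was higher in BN1 (0.65 ± 0.07) and lower in MA9 (-2.25 ± 0.08) and ME (-0.91 ± 0.07). Egr1 stood at 9.48 ± 2.22 CPM in WT and at 2.76 ± 0.393, 1.64 ± 0.190 and 1.13 ± 0.307 in the leukemias, and Jun was called only in MA9 among these 3 comparisons (0.73 ± 0.30, adjusted p = 0.048, edgeR), a call lost under 14 of the alternatives (adjusted p up to 0.15). Cebpz, named like the C/EBP factors, stood at 51.7 ± 3.67 CPM in WT and 64.1 ± 2.16, 72.3 ± 2.72 and 59.3 ± 0.842 in BN1, MA9 and ME. Csf3 itself, the gene of G-CSF, had 2 counts in WT, 1 in MA9 and none in BN1 and ME.

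Camp, Ngp and Ltf share a stretch of chromosome 9 with other genes, which were examined after the values of the 3 had been seen. Of 28 other protein-coding genes between them, 19 were tested. In BN1 against WT 4 of these were higher and 9 lower (median log2 fold change -0.17), in MA9 9 and 9 (-0.05), and in ME 9 and 9 (0.10). Of all tested genes 38.4%, 39.3% and 39% were called higher and 40.8%, 40.8% and 40.2% lower in these comparisons, so calls in both directions were common for any genes.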

How the data were processed

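Raw gene counts as deposited by the authors were used for 35976 gene symbols and 12 libraries of sorted mouse marrow cells. Per the submitters' processing notes, HISAT2, featureCounts, DESeq2 and mm10 were used, without roles or versions. The annotation, the use of strand and the treatment of shared reads are not stated in the sources used here. Genes were filtered with filterByExpr and scaled with TMM factors of 0.928 to 1.051 in edgeR 4.0.16 (R 4.3.3). One quasi-likelihood model with 4 groups and robust dispersion was fitted to all 12 libraries (biological coefficient of variation 5.87%, 8 residual degrees of freedom), and a gene counted as changed at an adjusted p under 0.05 (Benjamini-Hochberg, over all 15334 genes tested) in each of 6 comparisons. SEs were derived from the F statistic and are approximate. Levels per kilobase used the union of exons in GENCODE M21, and promoters and positions came from RefSeq and GENCODE for GRCm38. Scripts were tested on simulated data.

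The members and lists were chosen with earlier results of these data known. Named were all 10 genes, all regulators, up to 4 called list members per direction and comparison with the largest change and at least 5 CPM in the higher group (a selection is printed), the 5 genes nearest to Ltf and Chil3 (pseudocount 0.5 CPM), and related genes. Marker lists covered monocytes and macrophages, eosinophils with basophils and mast cells, B cells, T and NK cells, red cells and megakaryocytes. Summed over their list, T and NK cell markers stood at 132.8 to 149.6 CPM in WT and at most 2.18 in a leukemia library, megakaryocyte markers at 49.2 to 61.1 and at most 3.19, and eosinophil, basophil and mast cell markers at 454.8 to 473.8 and at most 83.1. Alternatives were DESeq2 1.42.0, limma-voom (limma 3.58.1), other scalings and filters, a fit of only the groups compared, a replicate block, a 2-fold minimum and each library left out. Libraries of a group all differed by more than sampling noise (lowest mean chi-square over genes 2.005). Python 3.11.15, pandas 2.3.3, numpy 2.4.6, scipy 1.17.1 and matplotlib 3.10.9 were used.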

Additional observations from a re-analysis of the deposited data

Results flagged for a closer look

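Chil3 changed in opposite directions in the leukemias under the same contrast with WT. It was higher in every BN1 library and lower in every MA9 library than in WT, and the difference between these effects was 3.51 ± 0.05 (log2, adjusted p = 1.3e-24, edgeR). Between MA9 and ME the difference of the effects was -3.30 ± 0.05 (adjusted p = 1.7e-23, edgeR), with every ME library above and every MA9 library below WT. The WT libraries are shared and cancel in these differences.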

How the results depend on the processing

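The counts of higher and lower calls among the 10 genes moved by at most 1 gene in each of the 6 comparisons under the 24 alternatives run. Of the values for single genes, 1436 kept their direction and call, 4 lost the call and 0 reversed. With a 2-fold minimum, Cd177 was no longer called in BN1 against WT or MA9 against ME, nor Chil3 in BN1 against ME. Without a scaling factor, which moved the median of all genes to 0.11, 0.16 and 0.1 (log2) for BN1, MA9 and ME against WT, Cd177 was not called in BN1 (-0.02, adjusted p = 0.62, range over the alternatives 3.5e-07 to 1). The 2-fold minimum left 4773, 4813 and 4692 of all genes called for BN1, MA9 and ME against WT, 2613 for BN1 against MA9, 2298 for BN1 against ME and 1174 for MA9 against ME, where the test without a minimum called 12146, 12284, 12152, 10375, 9927 and 6225. The same minimum left 1 primary granule gene lower in MA9 against WT. Of the other late genes it left 4 higher in BN1, 3 in MA9 and 1 in ME against WT, 2 lower in BN1 against MA9, 19 higher and 2 lower in BN1 against ME, and 6 higher and 12 lower in MA9 against ME. Of regulators it left 2 higher in BN1, 3 in MA9 and 3 in ME against WT, with 7 lower in ME, and of monocyte and macrophage genes 3 higher in BN1, 1 in MA9 and 0 in ME. The other list counts stayed within 1.5 times their value, and these list alternatives were chosen after seeing the data. The summed CPM of the 10 genes in WT was 43871.7 with RLE, 41431.7 with upper-quartile scaling and 39703.6 without a factor, against 42637.1, and in MA9 2400.6 without a factor, against 2287.3. Same-numbered libraries did not deviate together (r from -0.081 to 0.062, the own number being nearest in 12 of 36 cases), so they were not treated as pairs. With the replicate block all calls of the 10 genes were the same, and 12042, 12162, 12014, 10195, 9743 and 5967 of all genes were called in the order above. Leaving out any library kept every call of the 10 genes, while 720 to 731 of the 734 calls over the lists were kept and 0 reversed, with Retnlg in MA9 against ME between 1.83 and 4.43. Depth limits Retnlg and Ly6g in ME, with 7 and 11 counts in all, and there the ratio to other groups is imprecise. The fit without LOC101056014 and Lars2 was likewise added later.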
